A study of Mus musculus with 18 samples.

Results

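Expression is described for 9 of the 15402 genes in the table, all of which encode inhibitors that hold back the MAP kinase cascades: the 6 MAP kinase phosphatases Dusp1, Dusp2, Dusp4, Dusp5, Dusp6 and Dusp10, the Sprouty gene Spry1, and the Sprouty-related genes Spred1 and Spred2. They were picked by symbol, and all 9 were found and tested. RNA-seq was performed on 18 libraries of T cells from draining (inguinal and axillary) lymph nodes of female Foxp3-Tocky mice (strain label C57/BL6 Foxp3Timer Foxp3-IRES-GFP, 5 to 10 weeks old by the study's methods), taken 5 days after 3% oxazolone was put on the abdominal skin. The populations, each with 3 replicates, were Tnaive (CD44lo GFP- Timer-), Teff (CD44hi GFP- Timer-) and 4 Timer+ populations of CD4+ GFP+ cells: Pers1 (intermediate for Timer-Blue, low for Timer-Red), Pers2 (high for both forms), PAt (low for Blue but high for Red) and Arrested (without Blue, intermediate for Red). Pers denotes Pers1 and Pers2 together. A replicate was a pool of 3 mice, so p-values measure the spread between such pools. Every library came from sensitised mice that carried both reporters, and no unsensitised group was among the samples. The Timer protein, made under the control of Foxp3 regulatory sequence, is blue when new and matures to a stable red form, so that the gates sort cells by the recent history of Foxp3 transcription.

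Antigen receptors and cytokine receptors switch on Ras, which drives the kinases Raf, MEK and ERK, and parallel cascades lead to the kinases JNK and p38. Dual-specificity phosphatases of the MAP kinase class remove the activating phosphates from ERK, JNK or p38, and several of their genes are themselves induced by ERK signalling, which closes a negative feedback loop. Sprouty and Spred proteins act higher up, on Ras and Raf. In T cells these genes are known as early or lasting products of receptor stimulation, and regulatory T cells meet self antigen often.

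The values are log2 normalised counts as deposited, and a difference between populations is a log2 fold change from 1 limma model of all 18 libraries, given with its standard error (SE) and an adjusted p (Benjamini-Hochberg over 13190 tested genes). A gene was called when its adjusted p was under 0.05 and its absolute log2 fold change was over 1. A smaller difference that reached the adjusted p is said to have passed the adjusted p alone. The depth of the libraries is unknown, so the precision rests on the spread between replicates, and the SD of 3 libraries ranged from 0.01 to 0.62 over the 9 genes and 6 populations with a median of 0.16. Levels are compared between populations of 1 gene only, since they are not scaled by transcript length.

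The labels were checked first. The summed normalised counts of 6 T-cell markers lay between 102000 and 158000 in every library. Foxp3 averaged 14.42 to 14.82 on the log2 scale in the Timer+ populations and 10.54 to 11.34 in Tnaive and Teff. Cd44, on which Tnaive and Teff were sorted, averaged 9.61 in Tnaive and 13.05 in Teff. It averaged 12.01 in PAt, 11.86 in Arrested, 12.83 in Pers1 and 13.03 in Pers2, so PAt and Arrested also lay above Tnaive in Cd44. Transcripts of other cell types also moved with the populations. The summed normalised counts of 6 B-cell markers were 883 to 1280 in Tnaive, 6550 to 9450 in Teff, 2360 to 2710 in Pers and 3440 to 5180 in PAt and Arrested. For 7 myeloid markers the sums were 2080 to 2550 in Teff and at most 1040 elsewhere, and for 5 plasmacytoid dendritic cell markers 4380 to 5860 in Teff and at most 2300 elsewhere. Within Pers, the myeloid sums were 924 to 1040 in Pers1 and 594 to 669 in Pers2. The plasmacytoid dendritic cell sums were 1870 to 2150 in Pers1 and 1510 to 1720 in Pers2. The 2 CD8 T-cell markers summed to 2920 to 4090 in Teff and 1270 to 1560 in Tnaive. Their sums were 803 to 1160 in Pers and 1360 to 1670 in PAt and Arrested. The sums of 4 NK-cell markers were 712 to 877 in Tnaive and Teff and at most 256 in the Timer+ populations. All 4 averaged higher in Teff than in the Timer+ populations, but they did not move alike in Tnaive. Eomes and Klrd1 averaged 9.13 and 7.65 on the log2 scale in Tnaive and at most 6.99 and 6.06 in the Timer+ populations. Klrb1c averaged 4.8 in Tnaive and 5.4 to 6.43 in the Timer+ populations. Ncr1 averaged 2.76 in Tnaive and 2.77 to 2.84 in the Timer+ populations. The B-cell sums thus move with all comparisons between Teff, Tnaive, Pers and PAt with Arrested. The CD8 sums move with those of Teff and of Pers with PAt and Arrested. The myeloid and plasmacytoid dendritic cell sums move with those of Teff and with that of Pers2 and Pers1. The NK sums move with those of Timer+ and Timer- cells, for Tnaive through Eomes and Klrd1 only. The part of these other cell types in the results was not tested.

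Sequences upstream of the start sites are shown for the 4 genes whose libraries were all lower in Pers than in PAt and Arrested (Dusp1, Dusp2, Dusp6 and Spry1) and for Dusp5, which was not, so that their promoters can be set side by side. They come from RefSeq on GRCm38.p6, which matched 8 of the 9 genes, and are written 5′ to 3′ along the gene. Where GENCODE places an exon of the gene inside the window of 250 bases, the printed stretch stops before it. Capitals mark matches to the motifs searched.
Dusp1 (chr17:26508520-26508722, minus strand): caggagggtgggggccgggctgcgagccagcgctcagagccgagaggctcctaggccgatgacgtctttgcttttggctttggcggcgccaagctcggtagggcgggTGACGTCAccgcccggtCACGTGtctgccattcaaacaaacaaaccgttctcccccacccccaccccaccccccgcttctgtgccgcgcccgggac
Dusp2 (chr2:127335909-127336158, plus strand): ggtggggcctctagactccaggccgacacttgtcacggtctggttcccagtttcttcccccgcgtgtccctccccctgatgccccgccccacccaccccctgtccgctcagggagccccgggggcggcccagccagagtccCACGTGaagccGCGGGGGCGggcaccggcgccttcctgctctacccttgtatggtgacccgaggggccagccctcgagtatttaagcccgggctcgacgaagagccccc
Dusp5 (chr19:53528895-53529108, plus strand): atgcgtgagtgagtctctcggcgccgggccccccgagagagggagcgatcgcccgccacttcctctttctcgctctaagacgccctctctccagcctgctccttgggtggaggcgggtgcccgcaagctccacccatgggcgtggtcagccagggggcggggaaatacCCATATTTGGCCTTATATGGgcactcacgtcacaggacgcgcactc
Dusp6 (chr10:99262981-99263230, plus strand): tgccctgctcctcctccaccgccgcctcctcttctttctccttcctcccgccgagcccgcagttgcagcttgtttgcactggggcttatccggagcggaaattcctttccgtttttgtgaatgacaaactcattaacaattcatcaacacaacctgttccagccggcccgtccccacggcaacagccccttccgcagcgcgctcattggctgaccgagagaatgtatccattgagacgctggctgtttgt
Spry1 (chr3:37639697-37639946, plus strand): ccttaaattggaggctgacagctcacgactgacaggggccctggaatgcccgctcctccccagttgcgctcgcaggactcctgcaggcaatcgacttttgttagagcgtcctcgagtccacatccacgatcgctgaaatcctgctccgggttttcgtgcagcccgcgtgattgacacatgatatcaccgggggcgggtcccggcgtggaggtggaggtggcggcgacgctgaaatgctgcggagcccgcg

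Motifs of factors known to act downstream of MAP kinases or cAMP were searched on both strands of the window of 250 bases. They were the CRE TGACGTCA (in 1.55% of 32851 RefSeq promoters), the AP-1 site TGANTCA (6.75%), the ETS site CCGGAAGT (2.88%), the EGR site GCGNGGGCG (4.7%), the E-box CACGTG (6.02%) and the CArG box of serum response factor (1.47%). Dusp1 held a CRE at position -143 and an E-box at position -126 from the start. Dusp2 held an E-box at position -109 and an EGR site at position -98. Dusp5 held 2 CArG boxes, at positions -82 and -72. No match was found in Dusp6, Dusp10, Spry1, Spred1 or Spred2. No motif of this set was common to the 4 genes that were lower in Pers, and a match describes letters only.

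**Figure D1:**
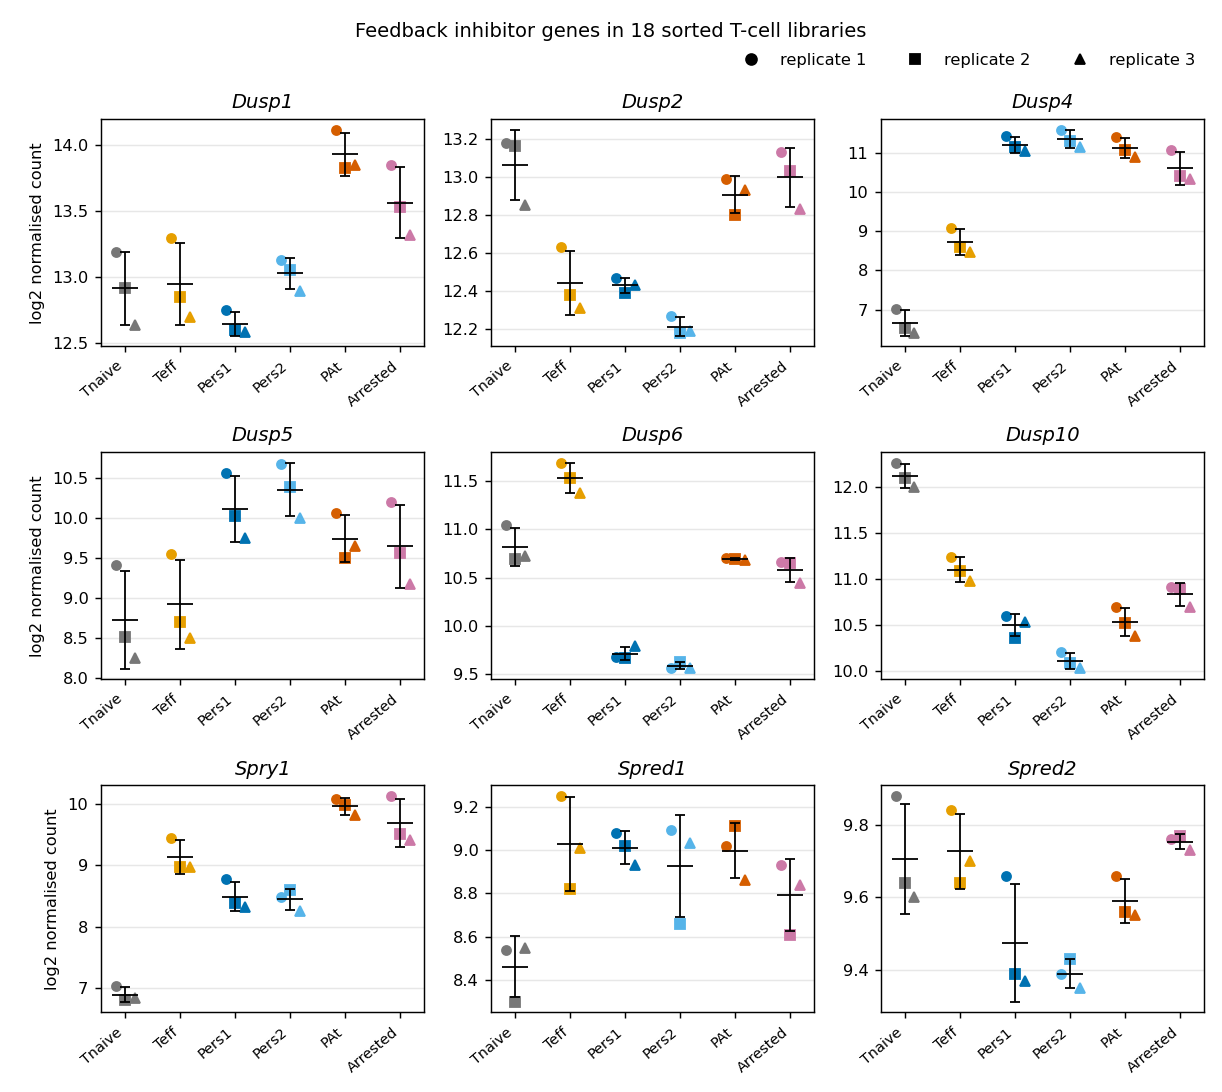
Log2 normalised count (y axis, a separate range for each gene) of the 9 genes in the 6 populations (x axis), where each point is 1 library with its shape giving the replicate number, and bars give the mean ± SD of 3 libraries. Dusp4 spans from 6.41 in Tnaive to 11.59 in Pers2, Dusp6 is lowest in both Pers populations, and the circles of replicate 1 lie on top in all 6 populations for Dusp1, Dusp2, Dusp4, Dusp5 and Dusp10.

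Dusp4, a nuclear phosphatase of ERK and JNK, showed the widest range of the 9 genes, with means that spanned 4.69 on the log2 scale. It lies on chromosome 8 of GRCm38 (mm10), from 34807297 to 34819894 on the plus strand. Its log2 values in replicates 1, 2 and 3 were 7.03, 6.54 and 6.41 in Tnaive and 9.09, 8.61 and 8.48 in Teff. The Timer+ values were 11.43, 11.15 and 11.04 for Pers1, 11.59, 11.31 and 11.14 for Pers2, 11.40, 11.07 and 10.90 for PAt, and 11.08, 10.41 and 10.32 for Arrested. All 12 Timer+ libraries thus lay above all Teff libraries, and all Teff libraries above all Tnaive libraries. The log2 fold change was 2.06 between Teff and Tnaive (SE 0.20, adjusted p = 1.12e-08), which is 4.18-fold, 2.55 between Pers and Teff (SE 0.17, adjusted p = 4.09e-11), and 4.20 between PAt with Arrested and Tnaive (SE 0.17, adjusted p = 9.19e-15), which is 18.4-fold. The change of 4.20 was larger in size than that of 99.8% of tested genes. Among the Timer+ libraries Dusp4 ranged from 10.32 to 11.59. Pers exceeded PAt and Arrested by 0.41 (95% confidence interval 0.12 to 0.70, adjusted p = 0.0118), and Arrested against PAt gave -0.52 (adjusted p = 0.145, and 0.000112 with the replicate number as a block), lower in 3 of 3 replicate numbers.

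Dusp5, a nuclear phosphatase specific to ERK, ran from low in the Timer- populations to high in Pers, with a large spread between replicates. The gene lies on chromosome 19 from 53529109 to 53542431, plus strand, and shares 547 exonic bases with an antisense gene, AC137853.2. Whether reads were counted by strand is not given in the sources used here, so reads of that partner cannot be told apart from those of Dusp5. The log2 values in replicates 1, 2 and 3 were 9.41, 8.51 and 8.24 in Tnaive, 9.54, 8.70 and 8.50 in Teff, 10.06, 9.49 and 9.65 in PAt, and 10.19, 9.56 and 9.17 in Arrested. The Pers1 libraries gave 10.56, 10.02 and 9.75 and the Pers2 libraries 10.67, 10.38 and 10.00. The Pers libraries lay above all Teff libraries, while Teff and Tnaive overlapped. Pers exceeded Teff by 1.32 (SE 0.26, adjusted p = 0.000186), a 2.49-fold difference, and PAt with Arrested exceeded Tnaive by 0.97 (SE 0.26, adjusted p = 0.00389), just under the fold threshold (1.31 and called without Tnaive replicate 1, and also called without PAt replicate 2 or Arrested replicate 3). The comparison of Pers with PAt and Arrested gave 0.54 (95% confidence interval 0.10 to 0.99, adjusted p = 0.0276). Ordered by mean, the populations ran Pers2, Pers1, PAt, Arrested, Teff and Tnaive, and no neighbouring pair passed the adjusted p. With the replicate number as a block, 2 neighbouring pairs did: Pers1 against PAt (0.37, adjusted p = 0.00728) and Arrested against Teff (0.73, adjusted p = 1.96e-05).

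Dusp1, an immediate early gene whose product acts on p38, JNK and ERK in the nucleus, was highest in PAt and Arrested. The gene runs on chromosome 17 from 26505590 to 26562128, minus strand, and its exons overlap those of the opposite-strand gene Ergic1 by 11 bases. Its log2 values in replicates 1, 2 and 3 were 14.12, 13.83 and 13.85 in PAt and 13.85, 13.53 and 13.32 in Arrested. In Pers1 they were 12.75, 12.60 and 12.59, in Pers2 13.13, 13.06 and 12.90, in Teff 13.30, 12.85 and 12.70, and in Tnaive 13.19, 12.92 and 12.64. All 6 PAt and Arrested libraries were above every other library. The order of means was PAt, Arrested, Pers2, Teff, Tnaive and Pers1, in which Arrested against Pers2 passed the adjusted p (0.54, adjusted p = 0.00279) and, with the replicate number as a block, also PAt against Arrested (0.36, adjusted p = 0.00243) and Tnaive against Pers1 (0.27, adjusted p = 0.00168). Pers was lower than PAt and Arrested by a log2 fold change of -0.91 (SE 0.10, adjusted p = 7.33e-08), or 1.88-fold, and PAt with Arrested exceeded Tnaive by 0.83 (SE 0.12, adjusted p = 8.88e-06). Teff and Tnaive gave 0.04 (95% confidence interval -0.26 to 0.33, adjusted p = 0.848). Since bulk libraries were measured, fewer cells that hold a transcript and less of it per cell cannot be told apart.

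Genes known to respond quickly to tissue handling and cell sorting were read beside Dusp1. Summed over 13 such genes, normalised counts were 111000 to 146000 in Pers and 215000 to 292000 in PAt and Arrested. In that comparison 4 of the 13 were called lower and none higher (Jun -2.09, Fosb -1.53, Fos -1.46 and Hspa1b -1.13 in log2 fold change), where 2.77% of all tested genes were called lower, with a median over the list of -0.93 against -0.01 over all tested genes. The sums were 227000 to 282000 in Tnaive, where Dusp1 overlapped with Teff and Pers, and 164000 to 200000 in Teff. The part of this response in the level of Dusp1 was not tested.

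Dusp2, a nuclear ERK phosphatase first found in activated T cells, had the narrowest range of the 6 phosphatases, 0.85 between its highest and lowest means. It is a compact gene on chromosome 2, from 127336159 to 127338376, plus strand. Log2 values in replicates 1, 2 and 3 were 13.18, 13.16 and 12.85 in Tnaive, 12.99, 12.80 and 12.93 in PAt, and 13.13, 13.03 and 12.83 in Arrested. They were 12.63, 12.38 and 12.31 in Teff, 12.47, 12.39 and 12.43 in Pers1, and 12.27, 12.18 and 12.19 in Pers2. The 9 libraries of Tnaive, PAt and Arrested all lay above the 9 of Teff and Pers. The step between these sets, PAt over Teff, was 0.46 (SE 0.09, adjusted p = 0.000157), and no other neighbours in the order passed the adjusted p, although Pers1 against Pers2 did with the replicate number as a block (0.22, adjusted p = 0.029). Pers against PAt and Arrested gave -0.63 (SE 0.06, adjusted p = 1.16e-08) and Teff against Tnaive -0.62 (SE 0.09, adjusted p = 3.29e-06), nearly equal log2 fold changes under the fold threshold.

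Dusp6, the cytoplasmic phosphatase specific to ERK, gave its highest values in Teff and its lowest in Pers. The gene lies on chromosome 10 from 99263231 to 99267489, plus strand. Its log2 values in replicates 1, 2 and 3 were 11.69, 11.53 and 11.38 in Teff, 11.04, 10.69 and 10.72 in Tnaive, 10.70, 10.69 and 10.68 in PAt, and 10.66, 10.65 and 10.44 in Arrested. In Pers1 they were 9.68, 9.67 and 9.79, and in Pers2 9.57, 9.63 and 9.57. The 6 Pers libraries lay below all other 12 libraries, the 3 Teff libraries above all others, and Tnaive, PAt and Arrested came between with means that did not pass the adjusted p as neighbours. Tnaive against Arrested, which are not neighbours, did pass (0.24, adjusted p = 0.0363). Pers was lower than Teff by a log2 fold change of -1.88 (SE 0.08, adjusted p = 1.34e-14), which is 3.69-fold. Against PAt and Arrested the log2 fold change was -0.99 (95% confidence interval -1.12 to -0.86, adjusted p = 1.07e-11), which is at the fold threshold and not called, although it was called without Pers1 replicate 3 (-1.01) or without Arrested replicate 3 (-1.02). Teff exceeded Tnaive by 0.71 (SE 0.09, adjusted p = 5.8e-07).

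Dusp10, a phosphatase of JNK and p38 rather than ERK, was highest in Tnaive. It lies on chromosome 1 from 184013302 to 184075636, plus strand. Replicates 1, 2 and 3 gave log2 values of 12.26, 12.09 and 12.00 in Tnaive and 11.24, 11.08 and 10.98 in Teff. The Timer+ values were 10.91, 10.89 and 10.69 in Arrested, 10.69, 10.52 and 10.38 in PAt, 10.60, 10.36 and 10.53 in Pers1, and 10.20, 10.09 and 10.03 in Pers2. Every Tnaive library lay above every Teff library, and every Teff library above every Timer+ library. Teff against Tnaive gave a log2 fold change of -1.02 (SE 0.09, adjusted p = 4.14e-09), 2.02-fold lower, and this call was lost without Tnaive replicate 1 or Teff replicate 3, with values down to -0.94. PAt with Arrested against Tnaive gave -1.44 (SE 0.08, adjusted p = 1.58e-12), 2.7-fold lower. Dusp10 was also the gene of the 9 that passed the adjusted p between Pers2 and Pers1, with a log2 fold change of -0.39 (SE 0.09, adjusted p = 0.0081) and no overlap of libraries.

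Spry1 encodes a membrane-associated inhibitor of Ras and Raf signalling that is induced by the pathway it restrains. The gene lies on chromosome 3 from 37639947 to 37644598, plus strand, and shares 710 exonic bases with the opposite-strand gene model Gm42922, from which its reads cannot be told apart without strand. Its log2 values in replicates 1, 2 and 3 were 7.02, 6.80 and 6.83 in Tnaive and 9.45, 8.97 and 8.98 in Teff. The Pers1 values were 8.77, 8.38 and 8.32 and the Pers2 values 8.48, 8.59 and 8.26, while PAt gave 10.09, 9.98 and 9.82 and Arrested 10.14, 9.51 and 9.42. Tnaive stood apart at the bottom, followed by Pers, with Teff above every Pers library and PAt above every Teff library. Teff exceeded Tnaive by 2.25 (SE 0.17, adjusted p = 1.96e-10), which is 4.76-fold, and PAt with Arrested exceeded Tnaive by 2.94 (SE 0.14, adjusted p = 2.33e-13), which is 7.7-fold. Pers against PAt and Arrested gave a log2 fold change of -1.36 (SE 0.12, adjusted p = 1.64e-09), 2.57-fold lower, and the difference within replicate numbers 1, 2 and 3 was -1.49, -1.26 and -1.33. In the order of means, Arrested exceeded Teff by 0.56 (adjusted p = 0.00925), Teff exceeded Pers1 by 0.64 (adjusted p = 0.0027), and Pers2 exceeded Tnaive by 1.56 (adjusted p = 4.17e-08), while the pairs PAt with Arrested and Pers1 with Pers2 did not pass.

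The Spred genes, whose products bring the Ras-inactivating protein neurofibromin to the membrane, varied much less, by 0.56 between the highest and lowest means for Spred1 and 0.37 for Spred2. Spred1 (chromosome 2, 117121374 to 117182279, plus strand) had log2 values of 8.54, 8.30 and 8.55 in Tnaive, and all 15 other libraries lay between 8.61 and 9.25. Teff exceeded Tnaive by 0.56 (SE 0.13, adjusted p = 0.000693) and PAt with Arrested exceeded Tnaive by 0.43 (SE 0.11, adjusted p = 0.00257), both under the fold threshold. Spred2 (chromosome 11, 19924375 to 20024026, plus strand) ranged over all libraries from 9.35 in Pers2 to 9.88 in Tnaive. Its log2 fold change was -0.24 in Pers against PAt and Arrested (SE 0.06, adjusted p = 0.00148) and -0.30 in Pers against Teff (SE 0.08, adjusted p = 0.00195), and no neighbouring pair of populations passed the adjusted p.

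**Figure D2:**
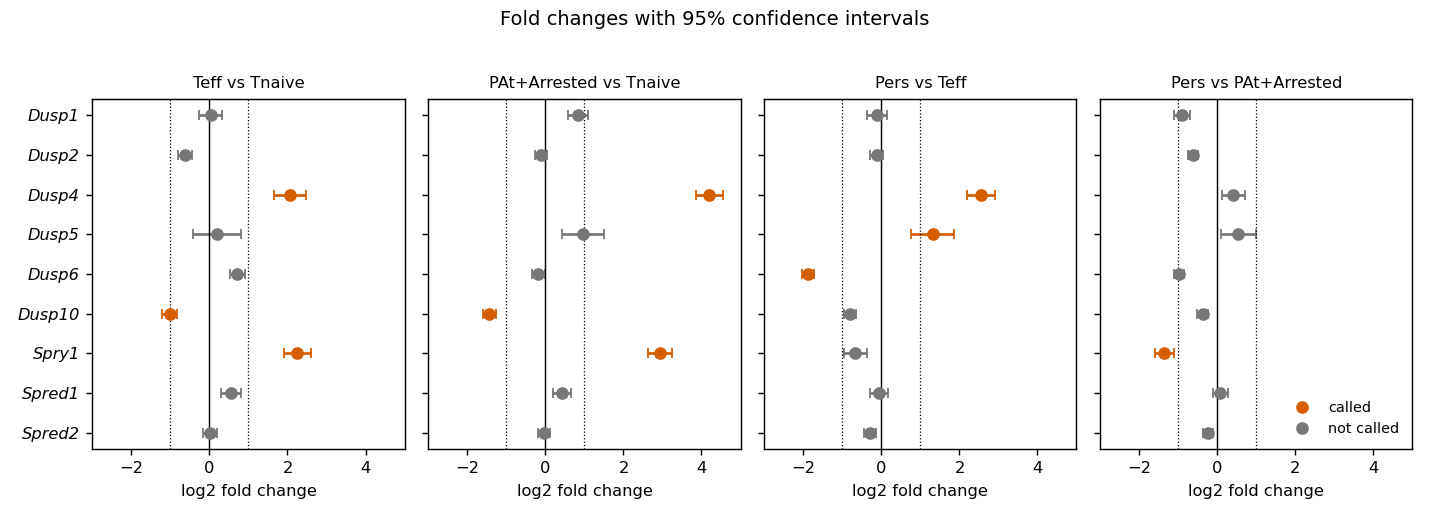
Log2 fold changes (x axis) of the 9 genes (y axis) in 4 comparisons, with bars for the 95% confidence intervals of limma, dotted lines at the fold threshold and colour for genes called. Dusp4 reaches 4.20 in PAt with Arrested against Tnaive, Dusp6 reaches -1.88 in Pers against Teff, and Spry1 at -1.36 is the gene called between Pers and PAt with Arrested.

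Across the comparisons, the question for the Timer+ cells was which of these genes differ between persistent Foxp3 transcription and the states named quiescent and arrested. Between Pers and PAt with Arrested, 1 of the 9 genes was called (Spry1, lower), where 7.51% of all tested genes were called and 2.77% were called lower. By the adjusted p alone 8 of 9 passed, but so did 70.9% of all tested genes. Complete separation with every Pers library below every PAt and Arrested library was seen for 4 of 9 genes (Dusp1, Dusp2, Dusp6 and Spry1), against 21.8% of all tested genes, and complete separation in the other direction for none, against 24%. The median log2 fold change of the 9 genes was -0.38, with the ERK and JNK phosphatase Dusp4 and the ERK phosphatase Dusp5 on the opposite side at 0.41 and 0.54. Spred1 was also positive, at 0.07, and did not pass the adjusted p (0.481).

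Within the Timer+ pairs of populations the differences were small. Between Pers2 and Pers1 none of the 9 genes was called, where 0.19% of tested genes were, and between Arrested and PAt none was called either, where 0.121% were. Libraries did not overlap for 1 gene higher in Pers2 than in Pers1 (Dusp1, background 16.8%) and 3 lower (Dusp2, Dusp6 and Dusp10, background 15%), and for 2 genes higher in Arrested than in PAt (Dusp10 and Spred2, background 7.84%) and 1 lower (Dusp6, background 10.1%). The adjusted p alone passed Dusp10 in the first pair (background 10.6%) and no gene in the second (background 5.04%), where 95% confidence intervals ran from -0.93 to -0.11 for Dusp4 and from 0.11 to 0.49 for Dusp10. The spread between replicate numbers bore on these counts. With the replicate number as a block, 3 genes passed the adjusted p between Pers2 and Pers1 (Dusp1 0.38, Dusp2 -0.22 and Dusp10 -0.39, background 14.2%) and 3 between Arrested and PAt (Dusp1 -0.36, Dusp4 -0.52 and Dusp10 0.30, background 7.09%). The log2 fold changes are the same in both models, and the adjusted p with the block ran from 0.000112 for Dusp4 to 0.029 for Dusp2.

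The comparison of Teff with Tnaive asks how the genes differ with CD44 in cells sorted as negative for GFP and Timer, in which Foxp3 transcripts were lower than in the Timer+ cells but present. Dusp4 and Spry1 were called higher and Dusp10 lower in Teff, 3 of 9 genes where 11.2% of tested genes were called (8.88% higher and 2.28% lower). By the adjusted p alone 6 of 9 passed, against 59% of tested genes, and libraries did not overlap for 4 genes that were higher in Teff (Dusp4, Dusp6, Spry1 and Spred1, background 34.1%) and 2 that were lower (Dusp2 and Dusp10, background 30.8%).

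Between Pers and Teff, Dusp4 and Dusp5 were called higher and Dusp6 lower in Pers, 3 of 9 where 8.31% were called (4.28% higher and 4.03% lower). The adjusted p alone passed 6 of 9 (background 58.7%), and libraries did not overlap for 2 genes higher in Pers (Dusp4 and Dusp5, background 24.9%) and 3 lower (Dusp6, Dusp10 and Spry1, background 24.1%). PAt with Arrested against Tnaive gave 3 of 9 calls as well, Dusp4 and Spry1 higher and Dusp10 lower, where 7.9% were called (6.63% higher and 1.27% lower). Here the adjusted p alone passed 6 of 9 (background 50.7%), or 7 of 9 with the replicate number as a block (background 53.8%), since Dusp6 (-0.18) went from an adjusted p of 0.0537 to 0.031, and libraries did not overlap for 4 genes higher in PAt and Arrested (Dusp1, Dusp4, Spry1 and Spred1, background 22.9%) and 1 lower (Dusp10, background 19%). Each of these comparisons shares a group with the one between Teff and Tnaive, so an overlap between them is not an independent result.

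**Figure D3:**
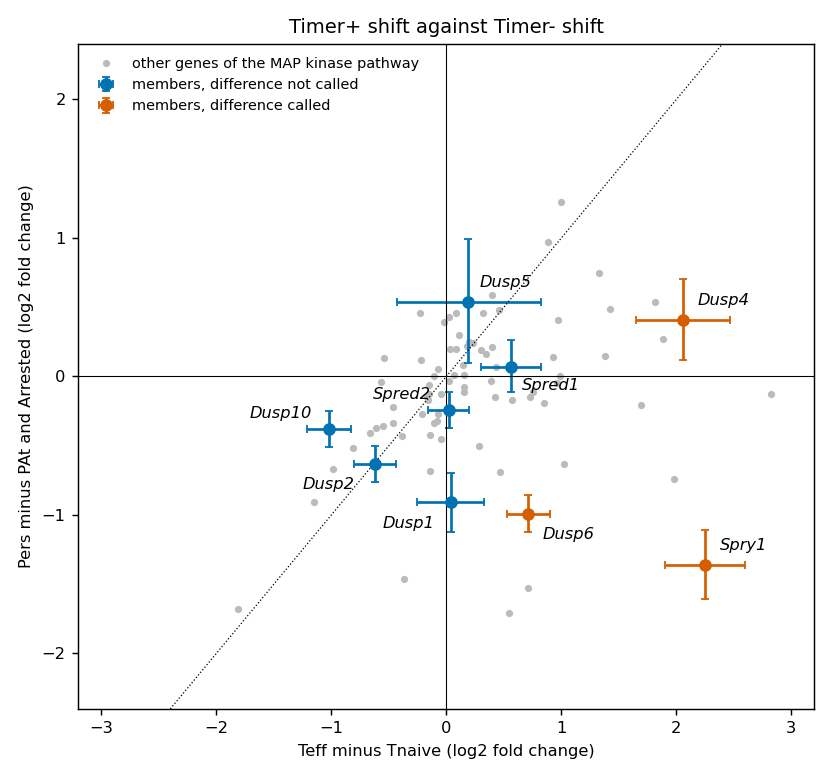
Log2 fold change of Teff over Tnaive (x axis) against that of Pers over PAt and Arrested (y axis), which share no libraries, for the 9 genes (bars are 95% confidence intervals) and for other MAP kinase pathway genes (grey), with a dotted line where both are equal. Spry1, Dusp6 and Dusp4 lie below the line, with differences of -3.61, -1.70 and -1.65, and Dusp2 lies on it at -0.01.

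The Timer+ and the Timer- cells each hold a pair that differs in cycling. Mki67, a marker of cycling cells, averaged 12.62 on the log2 scale in Teff and 8.48 in Tnaive, while the Timer+ means were 11.65 (PAt), 11.63 (Arrested), 14.51 (Pers1) and 14.54 (Pers2). Whether a gene shifts alike in both was tested as a difference of the 2 log2 fold changes, (Pers minus PAt and Arrested) minus (Teff minus Tnaive). That difference was called for 3 of 9 genes, all negative, where 8.42% of tested genes were called and 6.9% were called in the negative direction. By the adjusted p alone 7 of 9 passed, against 48.7% of tested genes. For Spry1 it was -3.61 (SE 0.20, adjusted p = 5.32e-12), from 2.25 between Teff and Tnaive and -1.36 between Pers and PAt with Arrested. Dusp6 likewise had opposite signs, 0.71 and -0.99, and a difference of -1.70 (SE 0.11, adjusted p = 3.5e-11). Dusp4 had 2 positive fold changes of unequal size, 2.06 and 0.41, and a difference of -1.65 (SE 0.24, adjusted p = 8.5e-06).

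The other 6 genes gave smaller differences of shifts. Dusp1 gave -0.95 (SE 0.18, adjusted p = 0.000139) and passed the fold threshold when Tnaive replicate 1, Teff replicate 3 or Arrested replicate 3 was left out, with -1.08 at most in size. Dusp10 gave 0.64 (adjusted p = 7.49e-05), lower in both pairs but less so in the Timer+ pair. Spred1 gave -0.49 (adjusted p = 0.0127) and Spred2 -0.26 (adjusted p = 0.0472). The difference was -0.01 for Dusp2, with a 95% confidence interval from -0.23 to 0.22. For Dusp5 it was 0.35, with an interval from -0.42 to 1.12 (adjusted p = 0.459, and 0.0436 with the replicate number as a block).

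**Figure D4:**
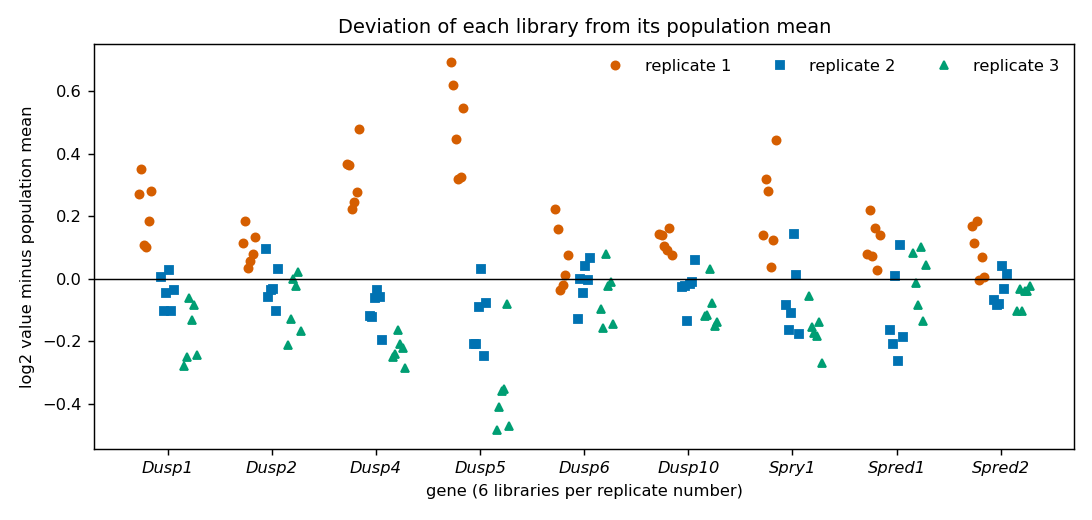
Log2 value of each library minus the mean of its population (y axis) for the 9 genes (x axis), with 6 libraries per replicate number, coloured by that number. Replicate 1 lies above 0 in all 6 populations for Dusp1, Dusp2, Dusp4, Dusp5, Dusp10, Spry1 and Spred1, and reaches furthest for Dusp5.

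A pattern across replicate numbers, noticed after the values had been seen, ran through most of the 9 genes. The library numbered 1 was the highest of its population in all 6 populations for Dusp1, Dusp2, Dusp4, Dusp5 and Dusp10, 5 of 9 genes, while 222 of 13190 tested genes (1.68%) did so. Libraries numbered 1 exceeded those numbered 2 and 3 by 0.74 for Dusp5 (SE 0.07, adjusted p = 1.18e-06), 0.49 for Dusp4 (SE 0.05, adjusted p = 7.24e-07), 0.34 for Spry1 (SE 0.07, adjusted p = 0.00586) and 0.33 for Dusp1 (SE 0.04, adjusted p = 6.24e-05) in a limma model of population and number. With Dusp10 (0.18) and Dusp2 (0.15), 6 of 9 genes passed the adjusted p in this direction, against 2.13% of tested genes. Handling genes did not all go the same way. The heat shock genes Hspa1a (-1.62) and Hspa1b (-1.55, both with adjusted p = 3.15e-10) had the widest differences of the 13 and were lower in replicate 1, as were Fosb (-0.43) and Jun (-0.38), whereas Junb was higher by 0.49 and Nr4a1 by 0.39. Pools of mice and the handling of each pool share the number and cannot be told apart. When the libraries numbered 1 were left out, every call of the 9 genes in the comparisons above was kept, and Dusp5 was called in addition between PAt with Arrested and Tnaive (1.09).

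**Figure D5:**
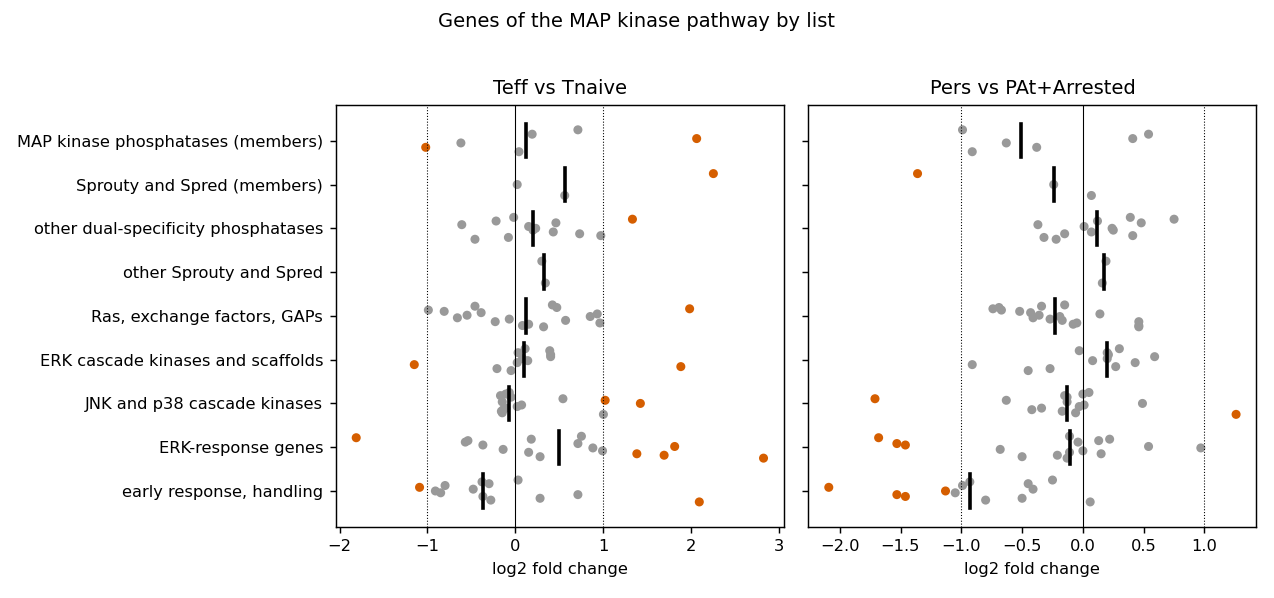
Log2 fold changes (x axis) of the genes of each list (y axis, 1 point per gene, black bars for medians, colour for genes called, dotted lines at the fold threshold) for Teff against Tnaive and for Pers against PAt with Arrested. The lists of kinases have medians from -0.13 to 0.20 in both comparisons, the Ras list has a median of -0.23 in the second, and the handling list has a median of -0.93 in the second comparison.

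The rest of the pathway was read from lists of gene families. Over all tested genes, 7.51% were called between Pers and PAt with Arrested and 11.2% between Teff and Tnaive. Of 20 other dual-specificity phosphatases listed, 13 were tested, and none was called between Pers and PAt with Arrested (median 0.12, from -0.37 to 0.75). Between Teff and Tnaive 1 was called, Dusp9, an ERK phosphatase, at 1.33, where the list's median was 0.20. Of the 4 other Sprouty and Spred genes, 2 were tested and neither was called in any of the 7 comparisons. Among 18 genes for Ras and its exchange and GTPase-activating factors, none was called between Pers and PAt with Arrested (median -0.23). By the adjusted p alone 11 were lower and 3 higher, where 70.9% of all tested genes passed in either direction. The 4 Rasgrp genes ran from -0.74 to -0.52, and the 3 higher genes, Hras, Nras and Grb2, each gave 0.46. Rasgrp3, an exchange factor that activates Ras, was called between Teff and Tnaive at 1.98.

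Among 12 ERK cascade kinases and scaffolds none was called between Pers and PAt with Arrested (median 0.20), while Ksr1, a scaffold that brings Raf, MEK and ERK together, was called higher in Teff than in Tnaive at 1.88 and Ksr2 lower at -1.15. By the adjusted p alone, 7 of the 12 were higher and 3 lower in Pers than in PAt and Arrested, within a range from -0.91 to 0.59, where 70.9% of all tested genes passed in either direction. Among 15 tested kinases of the JNK, p38 and ERK5 cascades, 2 were called between Pers and PAt with Arrested, where 7.51% of all tested genes were called. They were Map2k3, an activator of p38, higher at 1.26, and Mapk12, a p38 family kinase, lower at -1.71. Map3k5 (1.42) and Mapk11 (1.02) were called higher in Teff than in Tnaive, where 8.88% of all tested genes were called higher.

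A list of 16 genes known to respond to ERK activity was read beside the pathway, and ERK activity itself was not measured. Between Pers and PAt with Arrested 3 were called, all lower, where 2.77% of all tested genes were called lower. They were Myc, a driver of growth (-1.68), Fosb (-1.53) and Fos (-1.46). Of the 16, 3 are also on the handling list: Fos, Fosb and Egr1. By the adjusted p alone 6 were lower and 4 higher, where 70.9% of all tested genes passed in either direction. The transcription factor genes Etv4 and Etv5 were among those 4 higher, at 0.97 and 0.54. Between Teff and Tnaive 4 were called higher, Ccnd1 (2.82), Etv5 (1.81), Egr2 (1.69) and Egr3 (1.38), and Myc lower (-1.81), with a list median of 0.49. Over all tested genes, 8.88% were called higher and 2.28% lower in that comparison. Ccnd1 averaged 9.01 on the log2 scale in Teff and 5.98 to 6.29 in the other populations. Summed myeloid and plasmacytoid dendritic cell markers were also highest in Teff, and the part of such cells in Ccnd1 was not tested. The difference of the 2 shifts was called for 6 of 16 genes, all negative, where 6.9% of tested genes were called in that direction, with a median of -0.82 against -0.01 over all tested genes.

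Genes with the most similar profile were found for each of the 9 genes by Pearson's r over the 18 libraries. These coefficients describe the 6 population means above all, since the libraries share populations and replicate numbers. For Dusp6 they were Ccr9 (0.987), a chemokine receptor, Plcg1 (0.970) and Susd6 (0.967), and for Dusp4 Hopx (0.984), Mtmr3 (0.984) and Ergic1 (0.982). Spry1 ran closest to P2rx7 (0.970), an ATP receptor, Igf1r (0.968), the receptor of insulin-like growth factor, and Tns1 (0.956). Dusp2 ran closest to Klf2 (0.969), a transcription factor of quiescent T cells, Gramd4 (0.964) and Ppan (0.964). For Dusp10 they were Pvr (0.980), Arid3b (0.979) and Gucd1 (0.974), for Dusp1 Wipi2 (0.953), Limk1 (0.933) and Alkbh6 (0.928), and for Dusp5 Kcnk7 (0.909), Klf11 (0.906) and Slc9a3r1 (0.902). Spred1 followed Sptssa (0.897), Mir155hg (0.890) and Stx7 (0.874), and Spred2 followed Ccdc97 (0.924), Abhd8 (0.911) and Zfp36l2 (0.909). Of these 27 genes, 14 were also among the 3 closest by Spearman's rho.

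Among the 9 genes themselves, over the same 18 libraries, r was 0.841 between Dusp4 and Dusp5, 0.766 between Dusp6 and Spred2 and 0.699 between Dusp1 and Spry1, and -0.924 between Dusp4 and Dusp10.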

How the data were processed

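RNA from 18 libraries of 100000 to 250000 sorted cells was sequenced by the authors as stranded mRNA libraries with paired-end reads of 100 bp. Per the submitters' processing notes, CASAVA 1.8.2, FastQC 0.11.2, TopHat2 2.0.9 (build mm10) and DESeq2 were used. The counting tool, the annotation and the strand setting are not given in the sources used here. The table the authors deposited gives 15402 genes as log2 normalised counts, as the regularised log of DESeq2 makes them, a transform that shrinks the fold changes of weakly expressed genes. Depth is unknown, because raw counts were not used here.

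The values were used as deposited, with no pseudocount. Genes averaging 3 or more on the log2 scale (13190) were fitted with limma 3.58.1 in R 4.3.3, in 1 linear model of 6 populations (12 residual degrees of freedom) with a variance trend and Benjamini-Hochberg adjustment. The code was run on simulated data with independent noise and no effect of the replicate number. Since the real libraries share such an effect, that run does not show how the model performs on them. The comparisons were Pers against PAt with Arrested, Pers2 against Pers1, Arrested against PAt, Teff against Tnaive, Pers against Teff, PAt with Arrested against Tnaive, and the difference between the first and the fourth. The 9 genes and the gene lists were chosen with earlier results of these data known. All 9 genes are named throughout, from each list up to 4 genes with the largest changes among those called in the first or the fourth comparison, and the 3 genes with the highest Pearson r. Junb, Nr4a1, Hspa1a, the Rasgrp family, Hras, Nras, Grb2 and Etv4 were named outside this rule, after their values were seen.

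Libraries with the same replicate number were compared as pairs only where a block or the replicate number is named. The design text describes all populations as sorted from the same animals and the replicates as pools, although a shared pool per number is not spelled out. Deviations from population means had a median correlation of 0.166 over 45 pairs of libraries with the same number (32 above 0.1, lowest -0.206) and of -0.0642 over 90 pairs with different numbers. The main model had no block, as the study names none. Its SEs, intervals and adjusted p-values are thus unpaired. Alternatives covered the filter, the variance model, the groups in the fit, the scaling, the thresholds, the block, library weights and single libraries left out. Coordinates are from GENCODE vM21 on GRCm38. The authors' protein measurements were not used here.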

Additional observations from a re-analysis of the deposited data

Results flagged for a closer look

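For 3 genes the shift between Pers and PAt with Arrested differed from the shift between Teff and Tnaive by a test of the difference itself, in limma over all 18 libraries. The difference of log2 fold changes was -3.61 for Spry1 and -1.7 for Dusp6, whose shifts had opposite signs, and -1.65 for Dusp4, whose shifts were both positive. It was negative within all 3 replicate numbers for each gene, and stayed called in every alternative run, with values from -3.69 to -3.45 for Spry1, -1.81 to -1.62 for Dusp6 and -1.83 to -1.47 for Dusp4 when single libraries were left out. The summed markers of B cells, myeloid cells, plasmacytoid dendritic cells and CD8 T cells were highest in Teff. The same difference was called negative for 6 of 6 B-cell markers (median -3.33) and 4 of 5 plasmacytoid dendritic cell markers (median -3.68). It was also called negative for 5 of 6 myeloid markers (1 positive), 2 of 2 CD8 markers (median -2.23) and 2 of 4 NK markers. Over all tested genes, 6.9% were called negative. The part of these cells in the differences was not tested.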

How the results depend on the processing

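Calls depended most on the thresholds. In the order Pers against PAt with Arrested, Pers2 against Pers1, Arrested against PAt, Teff against Tnaive, Pers against Teff, PAt with Arrested against Tnaive, and the difference of shifts, the adjusted p alone passed 9357, 1395, 665, 7785, 7739, 6684 and 6420 genes and 8, 1, 0, 6, 6, 6 and 7 of the 9 genes. A log2 fold change over 0.5 passed 3472, 319, 229, 3589, 2864, 2380 and 3168 genes, and 5, 0, 0, 6, 5, 5 and 5 of the 9. Between Pers and PAt with Arrested, 2 of the 9 were called with libraries centred on the median, with quantile normalisation and with library weights, since Dusp6 passed (-1.05, -1.07 and -1.02). Dusp1 was also called for the difference of shifts with quantile normalisation (-1.01), and Dusp5 for PAt with Arrested against Tnaive with library weights (1.14). Values near 0 changed sign: Dusp1 (-0.05, centred) and Spred2 (-0.06, centred and quantile) for Teff against Tnaive, and Dusp2 (0.01, centred and weighted) for the difference of shifts. With libraries numbered 1 left out, chosen after seeing the data, so did Spry1 (0.07) and Spred2 (0.01) for Pers2 against Pers1, Dusp1 (0.01) for Pers against Teff, Spred2 (0.03) for PAt with Arrested against Tnaive, and Dusp2 (0.06) for the difference of shifts. The cause of these changes was not tested.

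With the replicate block, 992, 25, 17, 1473, 1096, 1042 and 1110 genes were called, and no call of the 9 genes changed. The block for neighbouring populations was added after seeing the data. When each library was left out in turn, 12 to 26 genes were called between Arrested and PAt (26 without Arrested replicate 3), and 1 to 2 of the 9 between Pers and PAt with Arrested (2 without Pers1 replicate 3 or Arrested replicate 3). Sign changes gave ranges of -0.24 to 0.06 for Dusp1, Pers against Teff, -0.14 to 0.17 for Dusp1, -0.12 to 0.54 for Dusp5 and -0.04 to 0.11 for Spred2, Teff against Tnaive, -0.07 to 0.10 for Dusp2, difference of shifts, -0.36 to 0.15 for Dusp5, Arrested against PAt, -0.16 to 0.05 for Spred1, Pers against Teff, -0.09 to 0.05 for Spred2, PAt with Arrested against Tnaive, and, for Pers2 against Pers1, -0.17 to 0.05 for Spred1, -0.14 to 0.01 for Spred2 and -0.13 to 0.09 for Spry1. A fit of the compared groups alone was not separate for the difference of shifts, which uses all 6. Without read counts, low levels such as Spry1 and Dusp4 in Tnaive carry an unknown counting error, and the transform shrinks their fold changes.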

Other observations

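Some other genes of the pathway also varied between populations. Rasgrp3, an exchange factor for Ras, averaged 5.39 ± 0.30 (SD, n = 3) on the log2 scale in Tnaive, 7.37 ± 0.15 in Teff, 5.94 ± 0.05 and 5.76 ± 0.32 in Pers1 and Pers2, and 6.61 ± 0.24 and 6.57 ± 0.12 in PAt and Arrested; like Dusp6 and Spry1, it was higher in Teff than in Pers (Pers against Teff, log2 fold change -1.52, adjusted p = 7.69e-09). Ccnd1, the cyclin D1 gene, averaged 9.01 ± 0.24 (SD, n = 3) in Teff and 5.98 to 6.29 in the other 5 populations. The part of myeloid and plasmacytoid dendritic cells in it, whose summed markers were also highest in Teff, was not tested. Mapk12, a p38 family kinase, averaged 8.89 ± 0.08 in PAt and 8.73 ± 0.06 in Arrested (SD, n = 3), and 6.77 to 7.32 in the other 4. Myc, whose product drives growth, averaged 12.17 to 12.51 in Tnaive, PAt and Arrested and 10.52 to 10.80 in Teff and Pers. This is the division of populations that Dusp2 showed. The summed handling genes divided the libraries in the same way, at 215000 to 292000 in Tnaive, PAt and Arrested and 111000 to 200000 in Teff and Pers. The part of the handling response in Dusp2 and Myc was not tested.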
